A study of Homo sapiens with 15 samples.

Results

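The genes described are CTNNB1, which encodes beta-catenin, the parts of the complex that destroys it, its nuclear partners and the feedback genes it switches on. They were taken by symbol from the raw count table, and all 10 of 10 listed symbols were found among the 730 endogenous genes of the panel. HCT116, a human colorectal cancer cell line, was left untreated as control or was treated for 24 h, and the RNA was counted on the NanoString PanCancer Pathways panel, in which color-barcoded probes are counted without amplification. The treatments were 40 µM thymoquinone (TQ), a plant quinone, 15 µM 5-fluorouracil (5-FU), an antimetabolite of pyrimidine synthesis, a mixture of 35 µM TQ with 35 µM 5-FU (Combi), and 35 µM SARB, a hybrid molecule that links 5-FU with TQ. Each of the 5 groups had 3 biological replicates, all of 1 line, and no vehicle is named for the control cells. The doses of TQ and 5-FU given alone differed from those in Combi, so the single treatments are set against control only, and SARB is also set against Combi at 35 µM.

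In the canonical WNT pathway, beta-catenin is made continuously and is destroyed unless a WNT ligand is present. APC, AXIN1, AMER1 and the kinase GSK3B take part in its phosphorylation and breakdown, and beta-catenin that escapes enters the nucleus, binds TCF and LEF factors and turns on target genes. Several of these targets, among them AXIN2, NKD1 and RNF43, act back on the pathway as inhibitors, so they serve as readouts of its activity in intestinal epithelium. HCT116 carries a mutation of CTNNB1 itself that stabilizes the protein, while its APC is intact.

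Values are scaled counts, which are raw counts divided by 1 factor per sample that makes the geometric mean of the 40 housekeeping genes the same in every sample. A call, higher or lower, needed a fold change of at least 1.5 and a p of at most 0.05 after Benjamini-Hochberg adjustment over the 730 genes, from 1 fit of edgeR's quasi-likelihood test over all 15 samples. Endogenous counts summed to between 135017 and 607782 per sample, and a count was above background where it passed the mean plus 2 SD of the negative probes, a limit of 6.23 to 26.4 raw counts. With this scaling the log2 fold changes of the 730 genes had a median of -0.47 in TQ, -0.41 in SARB, -0.27 in 5-FU, -0.10 in Combi and -0.32 for SARB versus Combi, and TMM normalization, which centers the bulk of the genes, put all of them between -0.07 and -0.02. The samples ran on 3 cartridges, read from the run names in the labels. Cartridge 1 held control replicate 1 and all TQ, 5-FU and SARB samples, cartridge 2 held control replicates 2 and 3 and Combi replicate 1, and cartridge 3 held the other Combi samples. No cartridge held both SARB and Combi, and with cartridge as a block TQ, 5-FU and SARB are compared with control replicate 1 alone. The block leaves Combi with a single informative sample, replicate 1, which is compared with the control samples of cartridge 2, since cartridge 3 held no other group. All 5 epithelial markers on the panel were above background in every sample, and their summed level ran from 2496 to 3626 in control, from 1975 to 2287 in TQ, from 2873 to 3517 in SARB, from 3979 to 4326 in 5-FU and from 4651 to 4910 in Combi. The leukocyte genes CSF1R and IL2RA and the fibroblast genes COL1A2, COL3A1 and PDGFRB were never above background, whereas CD40 was above it in every sample.

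Members called lower numbered 4 in TQ, where 21.6% of all genes were called lower, 4 in 5-FU, where 10.1% were, 1 in Combi, where 6.58% were, and 3 in SARB, where 20% were. Members called higher numbered 0 in TQ (3.42% of all genes), 0 in 5-FU (10.1%), 0 in Combi (13.6%) and 1 in SARB (8.63%). In SARB versus Combi 1 member was called lower (11.2% of all genes) and 0 higher (0.959%). At an unadjusted p under 0.05 in edgeR 1 member was higher in 5-FU and 0 were in TQ, in Combi and in SARB versus Combi. DESeq2 called 1 member higher in 5-FU and 0 in the other three of these comparisons, and limma on the deposited normalized values called 1 in 5-FU, 1 in Combi and 0 in the others. The genes called lower were CTNNB1, APC, GSK3B and TBL1XR1 in TQ, GSK3B, TBL1XR1, AXIN2 and RNF43 in 5-FU, AXIN2 in Combi, and GSK3B, AXIN2 and RNF43 in SARB. AMER1 was the gene called higher in SARB, and RNF43 the gene called lower in SARB versus Combi. After TMM normalization the counts of members called lower were 1 in TQ (6.03% of all genes), 1 in 5-FU (5.62%), 0 in Combi (5.75%), 2 in SARB (9.32%) and 1 in SARB versus Combi (7.4%). The counts called higher after TMM normalization were 0 in TQ (10.8%), 1 in 5-FU (14.2%), 0 in Combi (16.3%), 1 in SARB (16.4%) and 0 in SARB versus Combi (5.34%). In Combi, 1 member was lower and 2 were higher at an unadjusted p under 0.05 after TMM normalization. The calls that TMM normalization kept were GSK3B in TQ, AXIN2 in 5-FU, AXIN2, RNF43 and AMER1 in SARB, and RNF43 in SARB versus Combi.

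**Figure D1:**
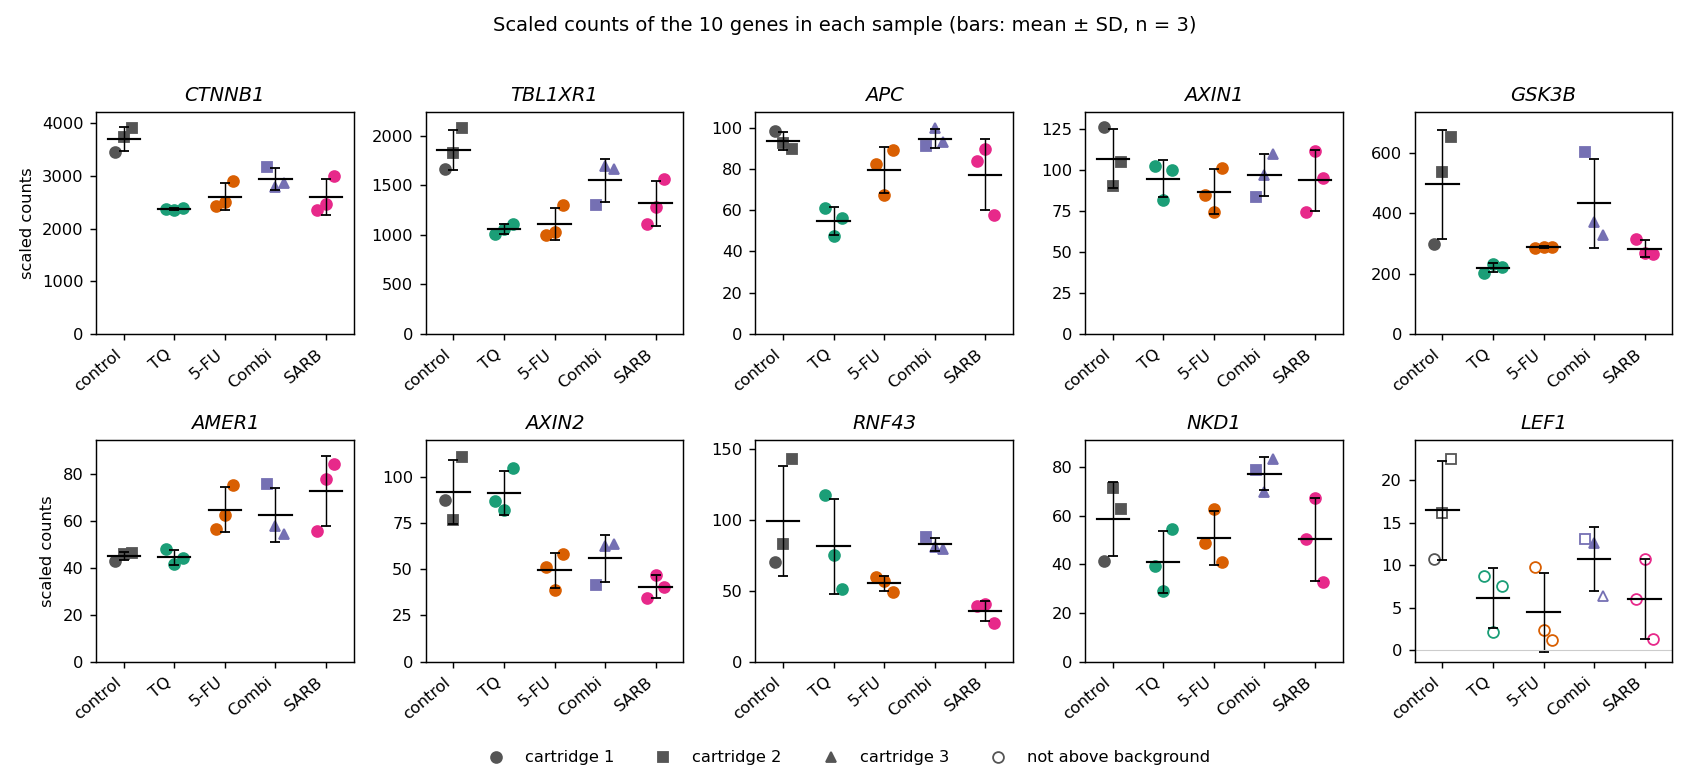
Scaled counts (vertical axis, linear, a separate range for each gene) of the 10 genes in control, TQ, 5-FU, Combi and SARB, with 1 point per sample, its shape showing the cartridge and open where it was not above background, and horizontal bars with whiskers for the mean ± SD of 3 samples. All 5-FU, Combi and SARB samples of AXIN2 (34.3 to 63.9) sit below the control samples (76.6 to 110.5), and the 3 cartridge 2 samples of GSK3B (537.5 to 651.3) sit above all others.

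Of the feedback genes, AXIN2 was called lower in 5-FU, Combi and SARB, RNF43 in 5-FU and SARB, and NKD1 in none. AXIN2, a target of beta-catenin whose product is a scaffold of the destruction complex like AXIN1, had 87.6, 76.6 and 110.5 scaled counts in the control samples and 87.0, 82.2 and 104.6 in TQ. In 5-FU it had 51.0, 39.0 and 58.1, in Combi 41.4, 62.8 and 63.9, and in SARB 34.3, 46.7 and 40.2. Every 5-FU, Combi and SARB sample was below every control and every TQ sample, and TQ overlapped with control. The log2 fold change was -1.19 in SARB (standard error 0.23, edgeR adjusted p = 2.71e-04), -0.89 in 5-FU (0.23, adjusted p = 0.00522) and -0.68 in Combi (0.21, adjusted p = 0.0192), each of them called. In TQ it was -0.01 (95% confidence interval -0.47 to 0.44, edgeR adjusted p = 0.966), and 0.46 after TMM normalization. In order of mean level, control (91.6 ± 17.3, SD, n = 3) and TQ (91.3 ± 11.8) stood first, followed by Combi (56.0 ± 12.7), 5-FU (49.4 ± 9.63) and SARB (40.4 ± 6.23), and 5-FU overlapped with both Combi and SARB.

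The fall of AXIN2 in SARB was called after TMM normalization (-0.81) and with cartridge as a block (-1.13). In 5-FU it was called after TMM normalization (-0.69), while the block left it at -0.83 (edgeR adjusted p = 0.0672). The call in Combi was lost when either control replicate 3 (-0.52) or Combi replicate 1 (-0.53) was left out and after TMM normalization (-0.57), and the block, which rests on Combi replicate 1 (41.4) alone, gave -1.17. SARB and Combi differed in AXIN2 by -0.51 (95% confidence interval -0.96 to -0.05, edgeR adjusted p = 0.111). This difference passed the threshold without Combi replicate 1 (-0.66) and was 0.04 with the block, and the samples of both groups overlapped.

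RNF43, a ubiquitin ligase that removes WNT receptors from the cell surface, had 70.7, 83.3 and 143 scaled counts in control. It had 117.5, 75.1 and 51.5 in TQ and 59.7, 56.8 and 49.4 in 5-FU. In Combi it had 87.8, 81.0 and 79.3, and in SARB 39.4, 40.7 and 27.6. The SARB samples were the lowest of all 15, the 5-FU samples were below all control samples, and TQ and Combi overlapped with control. RNF43 was lower than control by a log2 fold change of -1.50 in SARB (standard error 0.28, edgeR adjusted p = 2.04e-04), also after TMM normalization (-1.13). With the cartridge block, against control replicate 1 alone, the change was -1.03 (adjusted p = 0.0864). In 5-FU it was -0.84 (standard error 0.27, edgeR adjusted p = 0.0257), a call that was lost after TMM normalization (-0.62), with the block (-0.35) and without control replicate 3 (-0.48), 5-FU replicate 2 (-0.86) or 5-FU replicate 3 (-0.76). The change was -0.33 in TQ (95% confidence interval -0.88 to 0.23, and 0.16 after TMM normalization) and -0.26 in Combi (-0.79 to 0.26), neither of them called.

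RNF43 was the member called between the hybrid and the mixture. The 3 SARB samples were below the 3 Combi samples, with a log2 fold change of -1.24 (standard error 0.27, 95% confidence interval -1.79 to -0.69, edgeR adjusted p = 0.00294), and -0.98 after TMM normalization. With cartridge as a block, in which both groups are linked through the control samples only, the difference was -0.67 (adjusted p = 0.997), so that cartridge and compound cannot be told apart here. Combi contains free TQ and free 5-FU, each at 35 µM, whereas SARB holds both in 1 molecule.

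NKD1, which binds Dishevelled and dampens the WNT signal, had 41.5, 71.2 and 62.7 scaled counts in control. It had 39.2, 29.1 and 54.6 in TQ, 48.8, 62.7 and 40.8 in 5-FU, 78.8, 69.8 and 83.0 in Combi and 50.6, 67.1 and 32.8 in SARB. Each treatment overlapped with control, and no comparison was called. The log2 fold changes against control were -0.58 in TQ (95% confidence interval -1.22 to 0.05), -0.21 in 5-FU (-0.82 to 0.40), 0.39 in Combi (-0.18 to 0.96) and -0.28 in SARB (-0.87 to 0.32), the last being 0.05 after TMM normalization and 0.21 with the block. All SARB samples were below all Combi samples, by a log2 fold change of -0.67 (interval -1.22 to -0.12, edgeR adjusted p = 0.0796). It passed the threshold without SARB replicate 2 (-0.92) and was -0.02 with the block. NKD1 thus had its highest mean, 77.2 ± 6.76 (SD, n = 3), in Combi, a group in which AXIN2 was below control.

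LEF1, a DNA-binding partner of beta-catenin and also its target, could hardly be measured. Its raw counts were 7, 12 and 15 in control, 4, 4 and 5 in TQ, 9, 2 and 1 in 5-FU, 13, 27 and 12 in Combi and 7, 9 and 3 in SARB. It was above background in 1 of 15 samples, Combi replicate 2. No comparison was called, and the widest interval, in TQ, ran from -3.19 to -0.12 on the log2 scale. Calls appeared when 5-FU replicate 1 was left out of 5-FU versus control (-3.11) or SARB replicate 2 out of SARB versus control (-2.35), and no direction is read from counts at this depth.

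Of the destruction complex, GSK3B and APC passed the test downward in some treatments, AMER1 passed it upward in SARB, and AXIN1 passed it in none. AXIN1, the scaffold on which the complex assembles, had 126, 90.0 and 104.6 scaled counts in control, 102, 81.7 and 100 in TQ, and 84.7, 74.5 and 101 in 5-FU. In Combi it had 83.8, 97.0 and 109.7 and in SARB 74.6, 111 and 94.9. All groups overlapped. Its log2 fold changes lay between -0.30 in 5-FU (95% confidence interval -0.70 to 0.11) and -0.13 in Combi (-0.51 to 0.26), and those of TQ (-0.20) and SARB (-0.20) turned to 0.26 and 0.16 after TMM normalization. AXIN1 and AXIN2 encode related scaffolds, and only the transcript of AXIN2 passed the test in 5-FU, Combi and SARB.

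APC, the tumor suppressor lost in most colorectal cancers and intact in this line, had 98.4, 92.7 and 89.6 scaled counts in control and 60.9, 47.7 and 56.1 in TQ. It had 82.5, 67.4 and 88.9 in 5-FU, 90.9, 99.8 and 93.2 in Combi and 84.0, 89.9 and 57.7 in SARB. The TQ samples were below all control samples, as were those of 5-FU by a small margin, while Combi and SARB overlapped with control. The log2 fold change in TQ was -0.81 (standard error 0.20, edgeR adjusted p = 0.00545). The call was lost after TMM normalization (-0.34), with the cartridge block (-0.89, adjusted p = 0.0687) and without TQ replicate 2 (-0.68). The other changes were -0.23 in 5-FU (95% confidence interval -0.63 to 0.16), 0.02 in Combi (-0.35 to 0.39) and -0.31 in SARB (-0.70 to 0.08, and 0.03 after TMM normalization).

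GSK3B, the kinase that marks beta-catenin for destruction, had 298, 537.5 and 651 scaled counts in control and 202, 232 and 223 in TQ. It had 283, 289.7 and 289 in 5-FU, 602, 369.5 and 329 in Combi and 315, 268 and 264 in SARB. Its levels followed the cartridge. The 3 samples of cartridge 2 (537.5 to 651.3), which came from control and Combi, were above the 12 others (202.4 to 369.5), and 77 of 730 genes (10.5%) separated these samples in that way. GSK3B was called lower in TQ (-1.17, standard error 0.23, edgeR adjusted p = 6.94e-04), 5-FU (-0.79, 0.22, adjusted p = 0.00984) and SARB (-0.81, 0.22, adjusted p = 0.00625), and was -0.21 in Combi (95% confidence interval -0.65 to 0.24). Within cartridge 1, against control replicate 1 alone, the changes were -0.43 in TQ, -0.05 in 5-FU and -0.08 in SARB, none of them called. Control replicate 1 (298) was above all TQ and 5-FU samples and below 1 of the SARB samples. The calls in 5-FU and SARB were also lost after TMM normalization (-0.57 and -0.44) and without control replicate 3 (-0.55 and -0.57), while that in TQ was kept after TMM normalization (-0.68). SARB was below Combi by -0.61 (interval -1.05 to -0.16, edgeR adjusted p = 0.0536). This difference passed the threshold without Combi replicate 3 (-0.77). It also did with housekeeping genes of at least 100 counts (-0.66) and with counts under 20 set to 20 (-0.61). The block put the difference at -0.10.

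AMER1, a membrane-associated protein that binds APC and promotes the breakdown of beta-catenin, went the other way. It had 43.0, 45.7 and 46.3 scaled counts in control and 47.9, 41.6 and 44.0 in TQ. In 5-FU it had 56.4, 62.7 and 75.4, in Combi 75.7, 57.6 and 54.3, and in SARB 55.7, 77.9 and 84.4. All 5-FU, Combi and SARB samples were above all control and TQ samples, the mirror image of the order seen for AXIN2. The change in SARB was 0.70 (standard error 0.22, edgeR adjusted p = 0.0167), and 1.07 after TMM normalization. The call was lost with the block (0.76, adjusted p = 0.113) and without SARB replicate 3 (0.55). In 5-FU the change was 0.52 (95% confidence interval 0.05 to 1.00, edgeR adjusted p = 0.0932). It was called after TMM normalization (0.71), with DESeq2 (0.72) and in limma on the deposited normalized values (0.74). In Combi the change was 0.46 (-0.00 to 0.91, edgeR adjusted p = 0.144), and it was called in limma only (0.65). In TQ it was -0.04 (-0.53 to 0.46), and 0.44 after TMM normalization. SARB and Combi overlapped, with a difference of 0.24 (interval -0.17 to 0.65).

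CTNNB1 itself was lower than control in all treatments, although in the edgeR fit of all 15 samples the 1.5-fold limit was passed in TQ alone. It had 3445, 3731 and 3899 scaled counts in control, 2363, 2346 and 2396 in TQ, and 2427, 2497 and 2894 in 5-FU. In Combi it had 3175, 2784 and 2864, and in SARB 2357, 2465 and 2995. No treated sample reached the lowest control sample. In this RNA of whole cultures, less transcript per cell and fewer cells that carry it cannot be told apart. The log2 fold change was -0.64 in TQ (standard error 0.11, edgeR adjusted p = 2.54e-04), -0.50 in 5-FU (0.11, adjusted p = 0.00135), -0.50 in SARB (0.11, adjusted p = 0.00121) and -0.33 in Combi (0.11, adjusted p = 0.0271). The bulk of all genes was shifted in the same direction, and after TMM normalization the changes of CTNNB1 were -0.18, -0.31, -0.13 and -0.24 in the same order, with none called. With the cartridge block the change in TQ was -0.54, short of 1.5-fold, so that this call was lost too. The change in SARB was past 1.5-fold, and called, without SARB replicate 3 (-0.61) and in limma on the deposited normalized values (-0.62). SARB and Combi differed by -0.17 (95% confidence interval -0.40 to 0.06), and by 0.11 after TMM normalization. Counts of the transcript do not show the amount or the place of the protein, and the probe does not tell the mutant allele from the normal one.

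TBL1XR1, a part of nuclear corepressor complexes that also binds beta-catenin at target genes, had the same direction as CTNNB1 in each comparison with control. It had 1666, 1830 and 2076 scaled counts in control, 1007, 1056 and 1108 in TQ, and 998.5, 1034 and 1298 in 5-FU. In Combi it had 1301, 1693 and 1663, and in SARB 1109, 1282 and 1564. TQ, 5-FU and SARB lay below control without overlap, while Combi overlapped with control through 1 sample. The log2 fold changes were -0.81 in TQ (standard error 0.14, edgeR adjusted p = 2.54e-04) and -0.74 in 5-FU (0.14, adjusted p = 3.42e-04), both called, and -0.49 in SARB (0.14, adjusted p = 0.00901) and -0.26 in Combi (95% confidence interval -0.55 to 0.03). With the cartridge block the calls in TQ (-0.66) and 5-FU (-0.59) were kept. In Combi the block gave -0.59, past the threshold, from Combi replicate 1 (1301) alone, the lowest of the Combi samples. After TMM normalization TQ (-0.35) and 5-FU (-0.55) fell short of 1.5-fold. Without SARB replicate 3 the change in SARB was called (-0.64), as it was in limma on the deposited normalized values (-0.61). SARB and Combi differed by -0.24 (interval -0.52 to 0.05), which was 0.04 after TMM normalization.

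**Figure D2:**
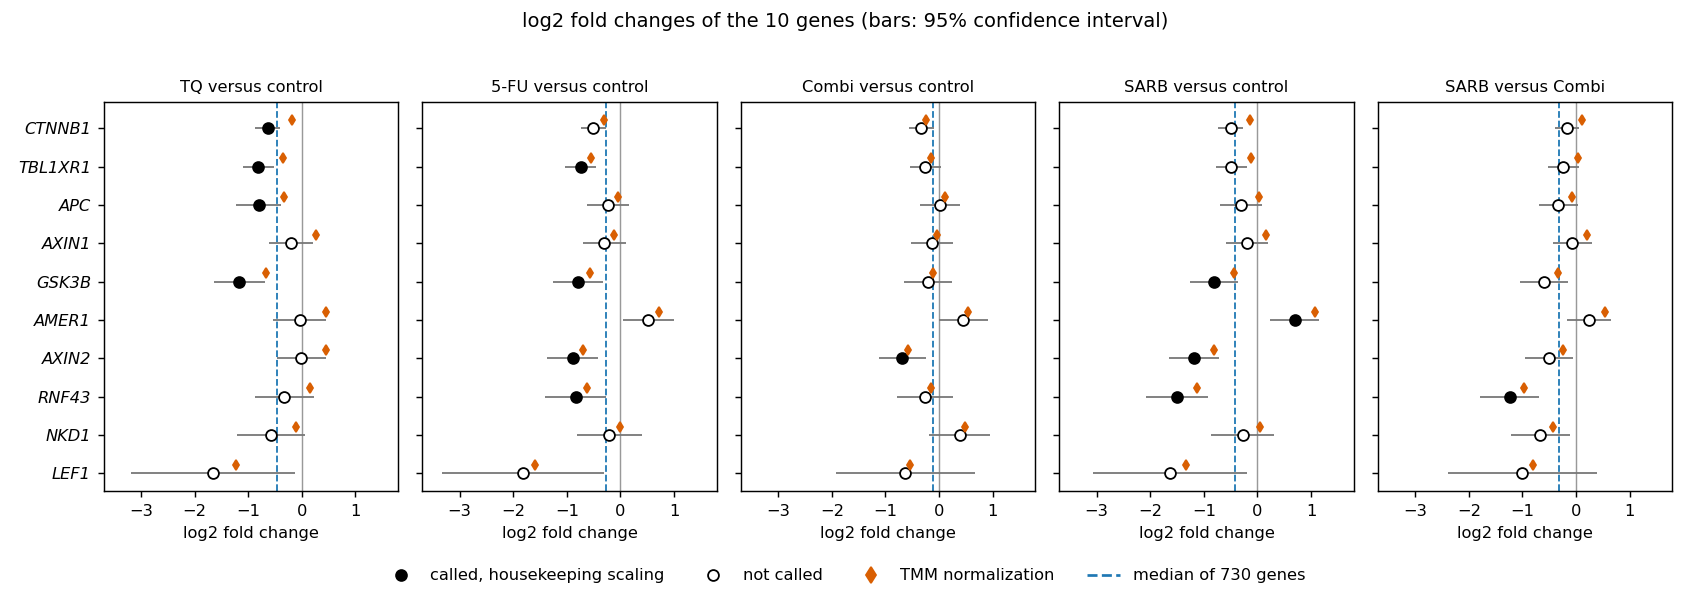
log2 fold changes (horizontal axis) of the 10 genes in the 5 comparisons, with circles and 95% confidence intervals under housekeeping scaling (filled where called), diamonds after TMM normalization, and a dashed line at the median of all 730 genes. The feedback genes AXIN2 and RNF43 lie left of the dashed line in 5-FU and SARB, AMER1 lies right of it, and CTNNB1 lies left of it in the 4 comparisons with control.

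Across the 10 members the median log2 fold change was -0.61 in TQ, -0.50 in SARB, -0.62 in 5-FU and -0.23 in Combi, beside -0.47, -0.41, -0.27 and -0.10 for all genes. After TMM normalization the medians of the members were -0.15, -0.13, -0.43 and -0.13. Between 6 and 7 of the 10 members were below the median of all genes in each comparison.

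Because the scaling moved many of these values, the feedback genes were also set against the destruction complex within each sample, where any scaling factor cancels. The measure is the mean log2 raw count of AXIN2, NKD1 and RNF43 minus that of APC, AXIN1, GSK3B and AMER1, with the control mean set to 0. The control samples lay between -0.21 and 0.23 and those of TQ between 0.14 and 0.35, with a mean of 0.24 ± 0.11 (SD, n = 3). The mean was -0.44 ± 0.20 in 5-FU (-0.66 to -0.30), -0.20 ± 0.21 in Combi (-0.44 to -0.02) and -0.80 ± 0.22 in SARB (-1.05 to -0.64). The TQ samples overlapped with control, the 5-FU and SARB samples were below all control samples, SARB was below all Combi samples and overlapped with 5-FU at the edge, and Combi overlapped with control. Without GSK3B, whose level followed the cartridge, the means were 0.05 in TQ, -0.61 in 5-FU and -0.27 in Combi, with control between -0.40 and 0.35. The 5-FU (-0.89 to -0.44) and SARB samples (-1.27 to -0.83) were again below all control samples, those of 5-FU by a small margin. Both measures also fall where a gene of the complex rises, and all 5-FU, Combi and SARB samples of AMER1 were above control. These measures do not remove the cartridge. Control replicate 1, the only control on cartridge 1 with the TQ, 5-FU and SARB samples, was the lowest control. It was at -0.21 with GSK3B and at -0.40 without it.

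Ratios of gene pairs gave the same picture in parts. AXIN2 over AXIN1, both scaffolds of the complex, was -0.60 ± 0.10 (SD, n = 3) in 5-FU, -0.58 ± 0.20 in Combi and -0.98 ± 0.07 in SARB on the log2 scale, with control at -0.30 to 0.31 and TQ at -0.01 to 0.29. All 5-FU, Combi and SARB samples were below all control samples, and SARB was below both other groups. Control replicate 1, the control on cartridge 1, was at -0.30 in this ratio. AXIN2 over CTNNB1 was above control in all TQ samples (0.51 to 0.83 against -0.26 to 0.21), where the counts of CTNNB1 were lower and those of AXIN2 were not, and was -0.67 ± 0.26 in SARB (-0.87 to -0.37), below all control samples. The 5-FU (-0.65 to -0.22) and Combi samples (-0.91 to -0.12) overlapped with control in this ratio. AXIN2 over NKD1 had a mean of 0.53 in TQ, -0.70 in 5-FU, -0.93 in SARB and -1.15 in Combi, with control at -0.56 to 0.41, and all groups but Combi overlapped with control. AMER1 over APC was above control (-0.14 to 0.10) in all samples of all 4 treatments, with means of 0.76 in TQ, 0.76 in 5-FU, 0.97 in SARB and 0.44 in Combi. CTNNB1 over TBL1XR1 had means between -0.07 in Combi and 0.24 in 5-FU. No test was made of these ratios.

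**Figure D3:**
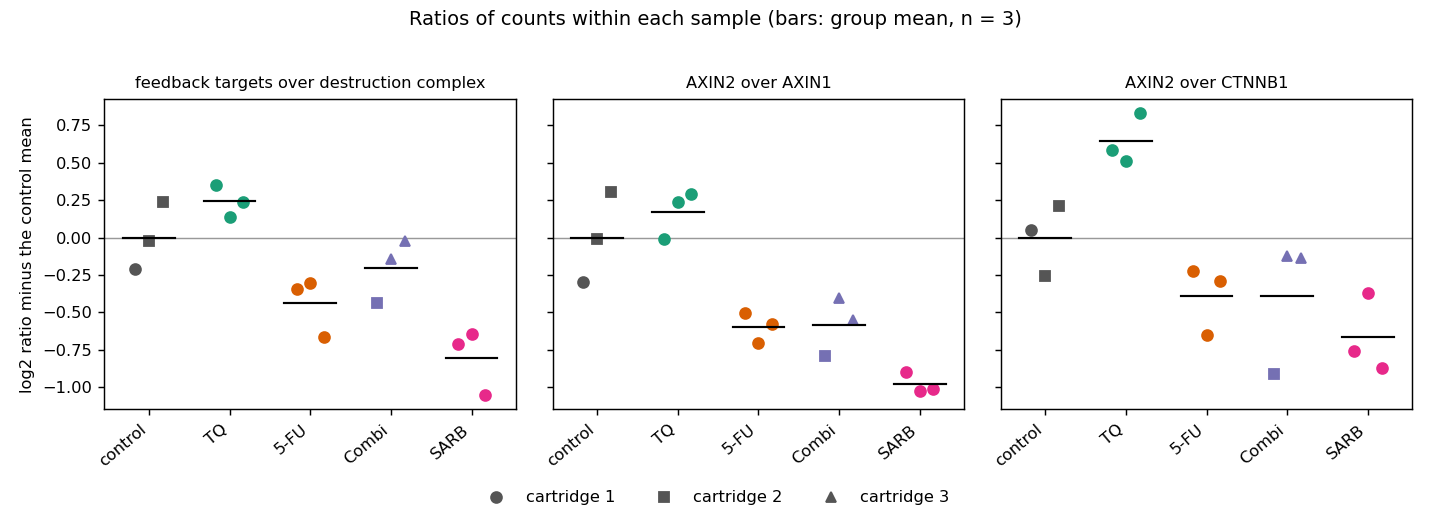
The 3 within-sample measures (vertical axis, log2 ratio minus the control mean) by group, with 1 point per sample, its shape showing the cartridge, and bars for the mean of 3 samples. SARB has the lowest mean in each panel (-0.80, -0.98 and -0.67), and the TQ samples of AXIN2 over CTNNB1 (0.51 to 0.83) sit above control.

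The precision differed between genes. Counting error alone, at the lowest raw count of each gene, was 3.03% for CTNNB1 (1086 counts), 17.4% for AXIN2 (33 counts), 17.1% for RNF43 (34 counts) and 23.6% for NKD1 (18 counts). The coefficient of variation between replicates of CTNNB1 ran from 1.09% in TQ to 13.1% in SARB. For RNF43 it was 39.2% in control and 41.1% in TQ, against 5.46% in Combi.

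Other genes of the pathway were read from 2 lists, 47 further signal transducers, of which 11 are on the panel, and 33 further target genes, of which 22 are. Among the transducers 3 were called lower in TQ and 1 in SARB, against 0 in 5-FU and Combi, and 1 was called higher, in SARB. The 3 lower in TQ are 27.3% of the 11, beside 21.6% of all genes, and the 1 lower in SARB is 9.09%, beside 20%. The 1 higher in SARB is also 9.09%, beside 8.63%. After TMM normalization 1 was lower in TQ, 1 in SARB, 1 in 5-FU and 0 in Combi (3 at an unadjusted p under 0.05), and PPP2CB was called higher in each of the 4 treatments. Of all genes, 6.03% were then called lower in TQ, 9.32% in SARB, 5.62% in 5-FU and 5.75% in Combi. Those called higher were 10.8%, 16.4%, 14.2% and 16.3% in the same order. At an unadjusted p under 0.05 in edgeR 4 transducers were lower in 5-FU and 5 in Combi, while DESeq2 called 1 and 0 lower there and limma 1 and 1. TCF7L1, a TCF factor that represses targets, fell from 69.1 ± 14.0 scaled counts (SD, n = 3) to 34.8 ± 4.55 in TQ (edgeR adjusted p = 0.00397), and the coactivator CREBBP fell from 60.4 ± 15.1 to 22.3 ± 10.9 (adjusted p = 0.0187), although neither was called after TMM normalization. SOX17, which antagonizes beta-catenin, was called lower in TQ (-1.93) and SARB (-1.79), also after TMM normalization. In 5-FU (-1.53 under housekeeping scaling) it was called lower only after TMM normalization. It had 9 to 66 raw counts and was above background in 13 of 15 samples. PPP2CB, a catalytic subunit of protein phosphatase 2A, was called higher in SARB (0.71), and in TQ, 5-FU and Combi only after TMM normalization.

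Among the 22 other targets, 4 were called lower and 2 higher in TQ, 3 lower and 5 higher in 5-FU, 8 lower and 5 higher in SARB, and 2 lower and 5 higher in Combi. The shares lower were 18.2% in TQ, 13.6% in 5-FU, 36.4% in SARB and 9.09% in Combi, beside 21.6%, 10.1%, 20% and 6.58% of all genes, and those higher were 9.09% in TQ and 22.7% in each other treatment, beside 3.42%, 10.1%, 8.63% and 13.6%. After TMM normalization the balance was 2 lower and 5 higher in TQ, 1 lower and 6 higher in 5-FU, 6 lower and 6 higher in SARB, and 2 lower and 6 higher in Combi, and the median in TQ was 0.08. Of all genes, 6.03% were then called lower in TQ, 5.62% in 5-FU, 9.32% in SARB and 5.75% in Combi. Those called higher were 10.8%, 14.2%, 16.4% and 16.3% in the same order. Under housekeeping scaling the median of the 22 targets was -0.39, -0.35, -0.64 and -0.16 in these groups, beside -0.47, -0.27, -0.41 and -0.10 for all genes. FOSL1, a subunit of the AP-1 transcription factor, rose in each treatment, from 407 ± 42.4 scaled counts (SD, n = 3) to between 634.5 ± 58.5 in TQ and 997 ± 30.3 in Combi. Its partner JUN rose in 5-FU (1.19), Combi (1.75) and SARB (1.30), as did CCND3 (0.86, 1.39 and 0.80), while CCND1, the cyclin D1 gene, rose in TQ (0.77), 5-FU (0.81) and SARB (0.95). In TQ, JUN (0.21 under housekeeping scaling) and CCND3 (0.39) were called higher only after TMM normalization. FGF18, a growth factor, was called higher in 5-FU (1.12), Combi (1.29) and SARB (1.04), although none of its control samples was above background.

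ID2, an inhibitor of helix-loop-helix factors, fell from 1001 ± 85.5 scaled counts to 592 ± 39.9 in 5-FU, 574 ± 14.4 in Combi and 502 ± 74.8 in SARB, which are the treatments in which AXIN2 was called. ID1 fell in TQ (-0.62), 5-FU (-1.19) and SARB (-1.38), and its change in Combi was -0.14. BMP4 fell in Combi (-0.95) and SARB (-0.94), and VEGFA fell in 5-FU (-0.61) and SARB (-0.63), and both calls of VEGFA, that of ID1 in TQ and that of ID2 in 5-FU were lost after TMM normalization. The secreted WNT inhibitor DKK1 rose in Combi (0.99), and its changes in 5-FU (0.41) and SARB (0.47) were called only after TMM normalization. DKK2 and DKK4, of the same family, were called lower in TQ (-1.72 and -2.29) and SARB (-1.90 and -1.92), with 6 to 39 and 6 to 42 raw counts, and were above background in 8 and 11 of 15 samples. FGF9 was called lower in SARB (-1.25), where 2 of 3 samples were above background. SFRP4 was called lower in TQ and SARB but was above background in 0 of 15 samples, and its raw counts were 1 to 11.

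**Figure D4:**
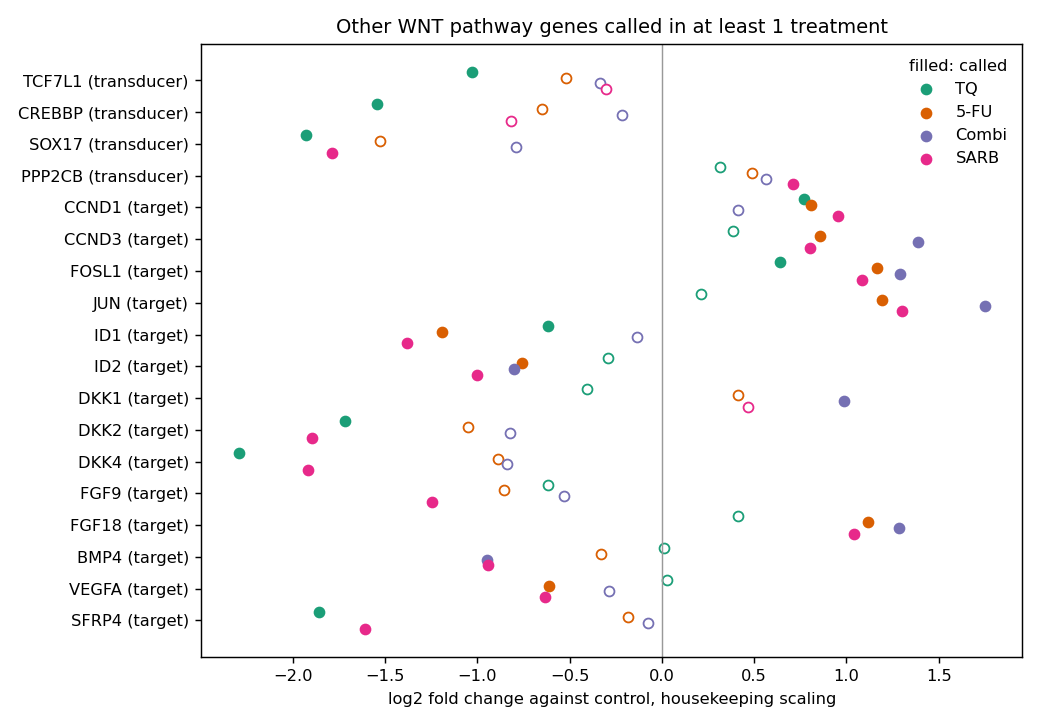
log2 fold changes against control under housekeeping scaling (horizontal axis) for the 18 other pathway genes called in at least 1 treatment, with 1 point per treatment, filled where called. JUN, FOSL1, CCND3 and FGF18 lie right of 0 in all treatments, and ID1 and ID2 lie left of it, while DKK1 is right of 0 in 5-FU, Combi and SARB and left of it in TQ.

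The genes most like AXIN2 over the 15 samples, by Pearson correlation of log2 scaled counts among 400 genes with a mean of at least 50 raw counts, were NTHL1 (r = 0.902), PTTG2 (0.864) and PPP3R1 (0.861). NTHL1, a DNA glycosylase of base excision repair, had means of 218 scaled counts in control, 197 in TQ, 117 in 5-FU, 120 in SARB and 122 in Combi. The genes most like CTNNB1 were ETV1 (0.934), SF3B1 (0.904) and MNAT1 (0.869), and ETV1 had 377 in control and 107 to 206.5 in the treatments. These correlations are descriptions over 15 samples of 5 groups that share the scaling factors. ETV1 fell to place 8 when the median of the genes with a mean of at least 50 raw counts was removed from each sample.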

How the data were processed

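RNA of HCT116 cells (50 ng per sample) was counted on the nCounter PanCancer Pathways panel. The authors deposited raw counts per probe and, in a second table, a normalized signal from nSolver, scaled by the authors on the geometric mean of the housekeeping genes. Another deposited table holds the authors' fold changes and p-values and was not used. Groups come from the sample titles and cartridges from the run names in the labels. The members and gene lists were chosen with earlier results of these data known.

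Raw counts were analysed in R 4.3.3 with edgeR 4.0.16 (glmQLFit and glmQLFTest), with offsets that equalize the geometric mean of the 40 housekeeping genes and 5 groups in 1 fit, and p-values were adjusted by Benjamini-Hochberg over 730 genes. All members, and the listed genes called in at least 1 treatment, are named. The alternatives were TMM normalization, housekeeping genes of at least 100 counts (34 of 40), DESeq2 1.42.0, cartridge as a block, a replicate block, a filter on low counts (above background in at least 3 samples, which kept 599 genes), counts under 20 set to 20, the normalized signal in limma 3.58.1 (log2 with a pseudocount of 1), and leaving out each sample. The scripts were tested on simulated data. Endogenous totals of 135017 to 607782 counts limit the precision of genes under about 20 counts. Confidence intervals are 95% intervals of the fitted log2 fold changes. No replicate pair agreed within sampling noise (chi-square per degree of freedom 1.56 to 14.8).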

Additional observations from a re-analysis of the deposited data

How the results depend on the processing

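Of the 50 log2 fold changes (10 members in 5 comparisons), the filter on low counts kept the direction and the call of all 45 it could test, LEF1 being filtered out, and housekeeping genes of at least 100 counts kept those of 49. Same-numbered samples of different groups did not vary together (correlations of -0.496 to 0.477 over 30 pairs and 405 genes), so the numbers are not taken as pairs, and a replicate block changed no call among the 50, with 4 members called lower in TQ as before.

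TMM normalization left 1 member called lower in TQ, 1 in 5-FU and 0 in Combi, and added 1 higher in 5-FU. DESeq2 gave 1 lower in TQ, 1 lower in 5-FU and 1 higher in 5-FU. Cartridge as a block gave 1 lower in TQ, 1 lower in 5-FU, 2 lower in Combi (resting on Combi replicate 1 alone), 1 lower and 0 higher in SARB, and 0 lower in SARB versus Combi. The deposited normalized signal in limma gave 1 higher and 2 lower in 5-FU, 1 higher in Combi and 5 lower in SARB. In SARB versus Combi 2 were lower with housekeeping genes of at least 100 counts and with counts under 20 set to 20. Leaving out 1 sample gave 2 to 5 lower in 5-FU, 0 to 1 lower in Combi, 2 to 5 lower and 0 to 1 higher in SARB, and 1 to 2 lower in SARB versus Combi. The lowest counts came without control replicate 3 in 5-FU (2) and in Combi (0), without Combi replicate 1 in Combi (0) and without SARB replicate 3 for higher in SARB (0), and the highest in SARB (5) also without SARB replicate 3.

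The direction of several small changes turned, and the cause was not tested. In TQ, TMM normalization gave AXIN1 0.26, AMER1 0.44, AXIN2 0.46 and RNF43 0.16, and DESeq2 gave 0.30, 0.48, 0.49 and 0.21. The block gave AMER1 0.0252, AXIN2 0.0455 and RNF43 0.15 in TQ, and limma gave AMER1 0.21 and AXIN2 0.0477. In 5-FU, NKD1 was 0.0106 with DESeq2 and 0.29 with the block. In Combi, the block gave APC -0.0052 and GSK3B 0.0192. In SARB, APC, AXIN1 and NKD1 were 0.0308, 0.16 and 0.0531 after TMM normalization and 0.0365, 0.16 and 0.0613 with DESeq2, and NKD1 was 0.21 with the block. In SARB versus Combi, CTNNB1, AXIN1 and TBL1XR1 were 0.11, 0.20 and 0.0383 after TMM normalization and 0.18, 0.27 and 0.12 with DESeq2, the block gave AXIN2 0.0422 and TBL1XR1 0.25, and LEF1 was 0.17 with counts under 20 set to 20. Leaving out 1 sample moved AXIN2 (-0.13 to 0.14), RNF43 (-0.60 to 0.0318) and AMER1 (-0.0808 to 0.0218) across 0 in TQ, AXIN1 (-0.24 to 0.0066), APC (-0.0224 to 0.0565), GSK3B (-0.51 to 0.0347) and RNF43 (-0.45 to 0.10) in Combi, and AXIN1 (-0.19 to 0.0668) in SARB versus Combi.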
